A study of Homo sapiens with 4 samples.

Results

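The genes described here code for the machinery that imports proteins into mitochondria, the chaperones and proteases that fold and clear them, and the factors that drive mitochondrial gene expression and biogenesis. They were chosen by symbol, with earlier results of these data known: every listed TIMM or TOMM gene with a number, plus 22 named genes, which gave 46 of the 26364 genes in the files. RNA-seq was done in BE(2)C, a human neuroblastoma cell line with amplified MYCN. Cells of both groups were grown in the same serum medium and then given siRNA (80 nM by the labels) with a lipid transfection reagent for 6 h. By the study's methods an equal volume of serum medium was then added to this mix, which gave a lower final siRNA concentration. The cells were collected the next day. In the 2 control samples (Ctrl) the siRNA was non-targeting, and in the 2 knockdown samples (MYCN KD) it was directed at MYCN. One siRNA and 1 cell line were used, and no label says whether the 2 samples of a group came from separate cultures, so each p-value measures only the spread between these samples.

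Most mitochondrial proteins are made in the cytosol from nuclear genes. They cross the outer membrane through the TOM complex and are then handed to the TIM complexes of the inner membrane, with small TIM chaperones escorting hydrophobic carriers across the space between. In the matrix, HSP70 and the HSP60 chaperonin pull in and fold them, and ATP-dependent proteases remove damaged chains. Coactivators of the PGC-1 family and the transcription factor NRF1 raise the expression of many of these nuclear genes, and MYC proteins, which bind the E-box CACGTG, are known to promote mitochondrial biogenesis in growing cells.

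The level of a gene is given in RPKM, the reads per kilobase of gene, scaled to the reads of its sample. Between 29055819 and 34142988 reads lay behind the values of a sample, as recovered from the RPKM steps. By the study's methods RPKM came from read counts already normalized by RUVSeq. The reads of a gene given below are therefore adjusted counts, not sequenced reads. The targeted gene MYCN stood at 1068 and 1073 RPKM in Ctrl and at 720.2 and 718 RPKM in MYCN KD, so it was lower in both knockdown samples, with a log2 fold change of -0.57 (SE 0.029, limma adjusted p = 0.00361), or -0.38 after quantile normalization (adjusted p = 0.00830). All 8 adrenergic neuroblastoma markers checked were present, at a mean of 28.5 to 614 RPKM, and their summed level was 1251 to 1353 RPKM in Ctrl and 1988 to 2163 RPKM in MYCN KD, with 4 higher and 2 lower. Of 6 fibroblast markers, 3 were tested and 2 were higher (summed level 12.6 to 14.97 RPKM in Ctrl and 16.7 to 19.6 RPKM in MYCN KD, with PRRX1 listed at 0). Of 4 leukocyte markers, 1 was tested and it was higher (3.50 to 4.30 against 9.43 to 11.5 RPKM summed, with PTPRC and CD3E near 0), and none of the 4 epithelial markers reached a mean of 1 RPKM (0.190 to 0.449 RPKM summed over the samples). The part of these marker levels in the changes described here was not tested.

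Most genes of the import and biogenesis machinery were lower after MYCN knockdown. Of the 45 with a mean of at least 1 RPKM, 31 fell, 2 rose and 12 did not pass the test (limma on log2(RPKM + 1), Benjamini-Hochberg adjusted over 11411 genes, threshold 0.05). Thus 68.9% were lower and 4.44% were higher, where 22.8% of all tested genes were lower and 25.3% were higher. The median log2 fold change of the 45 genes was -0.45, beside 0.03 over all tested genes, and 39 of the 45 had a negative value. Both MYCN KD values lay below both Ctrl values for 39 genes (35.8% of all tested genes did so) and above them for 3 genes (40.4% of all tested genes). The values of TIMM17B, YME1L1 and TFB1M overlapped between the groups. Summed over all 46 genes, the level of the Ctrl samples was 4088 and 4021 RPKM and that of the MYCN KD samples 2815 and 2872 RPKM, a ratio of 0.701, while the RPKM of all listed genes summed to a ratio of 0.959.

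**Figure D1:**
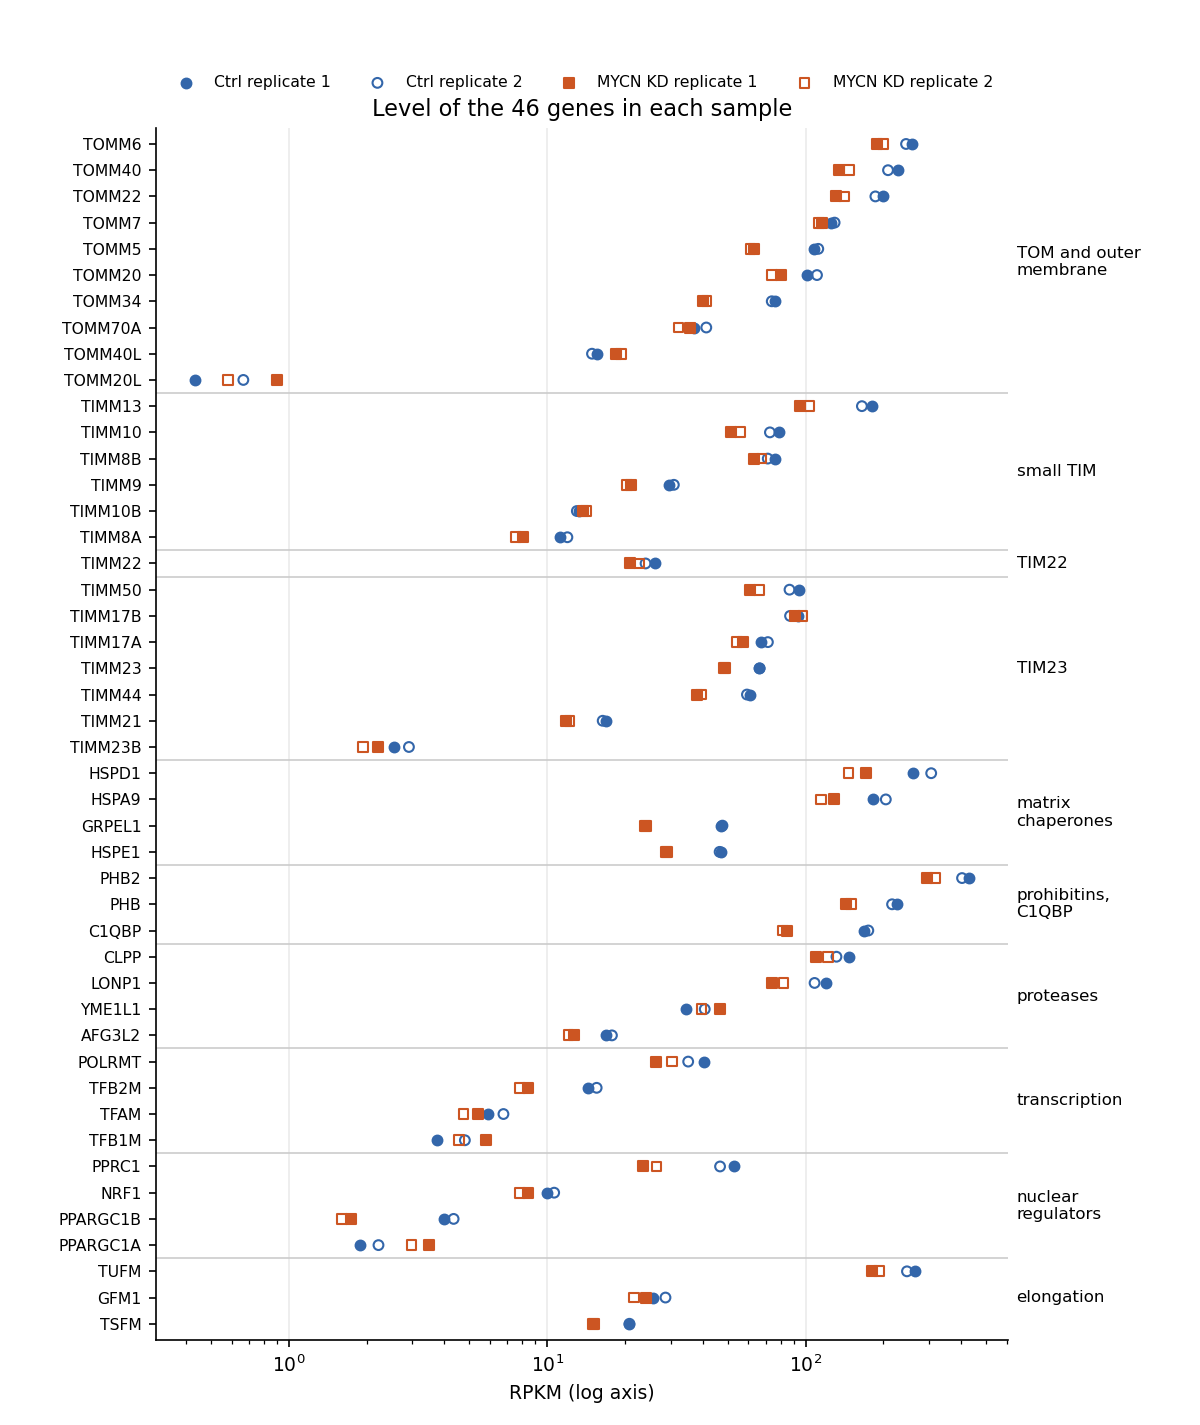
Level of each of the 46 genes in RPKM (log axis) in the 2 Ctrl samples (circles) and the 2 MYCN KD samples (squares), by role. For 39 of the 45 tested genes both squares sit to the left of both circles, and for TOMM40L, TIMM10B and PPARGC1A they sit to the right.

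**Figure D2:**
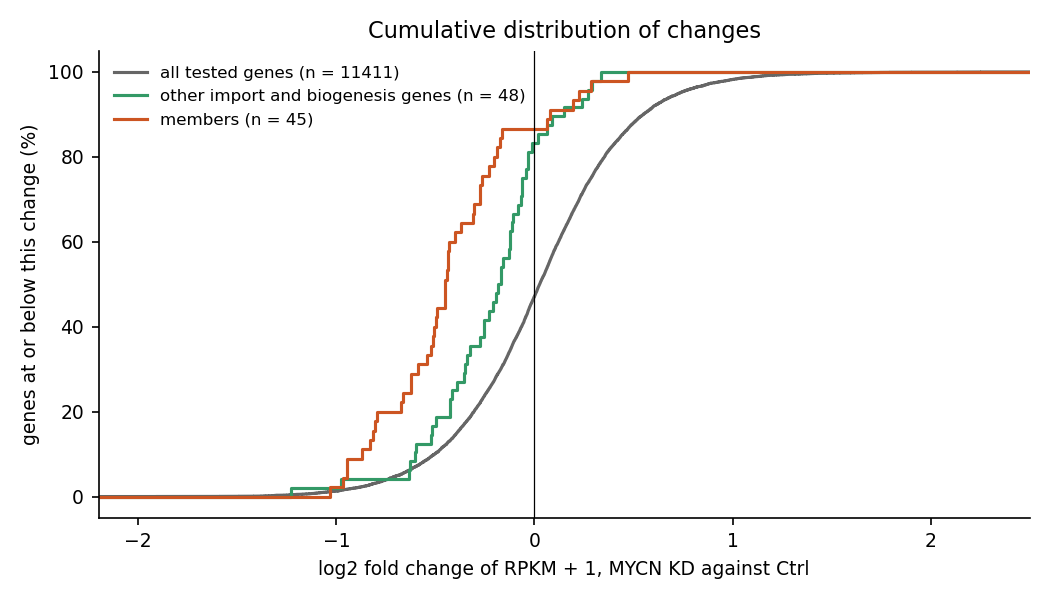
Cumulative share of genes (%) at or below each log2 fold change of RPKM + 1, for the 45 tested genes described here, 48 other import and biogenesis genes and all 11411 tested genes. The curve of the 45 genes lies to the left of the curve of all genes over most of its range, with medians of -0.45 and 0.03.

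Since many of these genes moved together, their promoter sequences were read. RefSeq windows of 300 bases, from 250 before to 50 after the gene start, were found for 40 of the 46 genes (44 windows, as some genes have several starts), and 43 windows were placed on GRCh37 by exact match. CLPP, GRPEL1, NRF1, TIMM8B, TOMM5 and YME1L1 had no window. Both strands were searched for the E-box CACGTG, the NRF1 motif (the 10-base palindrome in capitals in the TFB1M and POLRMT sequences) and the ETS motif CCGGAAGTG, and no match overlapped a match to another motif. The E-box was in 8 of the 44 windows (18.2%) and in 7.26% of all 35116 RefSeq windows, the NRF1 motif in 3 (6.82%, against 1.24%) and the ETS motif in 5 (11.4%, against 2.36%). Among genes that fell, 7 of 31 windows (22.6%) held an E-box, and of the 10 windows of genes without a call or not tested, 0 did. The remaining E-box was in 1 of the 3 windows of the genes that rose. The windows of HSPD1 and HSPE1, which fell, overlap and hold the same E-box, so these counts include that site for both genes. The 35116 RefSeq windows were not limited to genes expressed in these cells, so the shares are not of like sets. A match of letters is a description and shows no binding.

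The windows printed here hold an E-box in genes that fell (HSPE1, HSPA9, LONP1, TOMM20, TIMM10) or rose (PPARGC1A), or the NRF1 motif in genes without a call (TFB1M, POLRMT). They run 5′ to 3′ on the strand of the gene, with the motifs in capitals. On GRCh37 they lie at chr2:198364853-198365152 (HSPE1, plus strand), chr5:137911041-137911340 (HSPA9, minus), chr19:5720108-5720407 (LONP1, minus), chr1:235292103-235292402 (TOMM20, minus), chr11:57298178-57298477 (TIMM10, minus), chr4:24474479-24474778 (PPARGC1A, minus), chr6:155635569-155635868 (TFB1M, minus) and chr19:633488-633787 (POLRMT, minus).
HSPE1: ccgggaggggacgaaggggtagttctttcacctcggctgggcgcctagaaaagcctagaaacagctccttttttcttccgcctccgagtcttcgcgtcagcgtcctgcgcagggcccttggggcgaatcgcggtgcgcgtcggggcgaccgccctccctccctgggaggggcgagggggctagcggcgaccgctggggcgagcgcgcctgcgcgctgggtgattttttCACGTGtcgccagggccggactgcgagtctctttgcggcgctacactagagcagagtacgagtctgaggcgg
HSPA9: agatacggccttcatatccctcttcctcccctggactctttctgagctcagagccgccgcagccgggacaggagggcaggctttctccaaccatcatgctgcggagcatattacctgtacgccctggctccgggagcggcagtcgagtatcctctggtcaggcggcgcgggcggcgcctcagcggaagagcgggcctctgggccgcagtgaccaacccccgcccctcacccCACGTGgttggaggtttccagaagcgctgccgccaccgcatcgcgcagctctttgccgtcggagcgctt
LONP1: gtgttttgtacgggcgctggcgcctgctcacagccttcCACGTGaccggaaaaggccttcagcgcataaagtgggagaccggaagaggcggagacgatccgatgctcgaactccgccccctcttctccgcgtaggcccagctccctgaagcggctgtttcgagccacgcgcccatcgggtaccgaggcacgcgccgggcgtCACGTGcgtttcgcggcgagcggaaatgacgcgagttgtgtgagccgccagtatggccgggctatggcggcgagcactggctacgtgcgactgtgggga
TOMM20: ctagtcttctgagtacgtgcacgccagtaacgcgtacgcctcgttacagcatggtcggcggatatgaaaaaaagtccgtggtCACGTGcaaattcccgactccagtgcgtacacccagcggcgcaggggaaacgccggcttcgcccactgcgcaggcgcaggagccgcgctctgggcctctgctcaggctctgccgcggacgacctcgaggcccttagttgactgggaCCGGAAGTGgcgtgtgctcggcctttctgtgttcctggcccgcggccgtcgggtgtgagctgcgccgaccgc
TIMM10: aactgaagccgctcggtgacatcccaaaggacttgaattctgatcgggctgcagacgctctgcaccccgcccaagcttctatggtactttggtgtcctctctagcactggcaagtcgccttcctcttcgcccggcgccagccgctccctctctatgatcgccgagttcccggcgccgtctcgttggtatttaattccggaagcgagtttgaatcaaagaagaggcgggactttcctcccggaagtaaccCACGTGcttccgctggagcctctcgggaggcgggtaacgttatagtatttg
PPARGC1A: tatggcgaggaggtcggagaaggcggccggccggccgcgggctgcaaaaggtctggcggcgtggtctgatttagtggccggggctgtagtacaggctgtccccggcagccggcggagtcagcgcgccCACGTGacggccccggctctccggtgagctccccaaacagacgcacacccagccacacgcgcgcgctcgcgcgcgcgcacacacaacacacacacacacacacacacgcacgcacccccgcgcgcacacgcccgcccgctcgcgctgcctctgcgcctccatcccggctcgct
TFB1M: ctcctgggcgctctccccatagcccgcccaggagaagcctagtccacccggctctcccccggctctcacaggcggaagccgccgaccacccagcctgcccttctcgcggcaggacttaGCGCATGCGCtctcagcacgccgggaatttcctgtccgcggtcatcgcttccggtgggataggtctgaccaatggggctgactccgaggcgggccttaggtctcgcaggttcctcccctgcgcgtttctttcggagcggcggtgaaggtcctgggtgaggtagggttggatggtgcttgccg
POLRMT: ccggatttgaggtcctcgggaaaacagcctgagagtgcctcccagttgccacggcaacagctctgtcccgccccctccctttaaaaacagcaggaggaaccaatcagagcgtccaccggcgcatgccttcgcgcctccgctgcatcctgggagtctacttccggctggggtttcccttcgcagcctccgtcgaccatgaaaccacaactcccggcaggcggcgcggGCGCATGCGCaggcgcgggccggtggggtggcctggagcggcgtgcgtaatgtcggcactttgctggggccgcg
Counted from the gene start, with the first transcribed base as 1 and the base before it as -1, the E-box began at -22 in HSPE1, -19 in HSPA9, -168 in TOMM20 and -1 in TIMM10. LONP1 held 2 E-boxes, at -212 and -49, and TOMM20 also held the ETS motif at -22. HSPD1 and HSPE1 are transcribed in opposite directions and their windows share 204 bases, so the E-box at -88 of HSPD1 is the one printed for HSPE1. TIMM8A had an E-box at 29. The PPARGC1A window printed belongs to a start upstream of the gene body annotated by GENCODE, and its other window, at chr4:23882675-23882974, held none of the 3 motifs. The NRF1 motif was also in a second window of LONP1, at -200, and the ETS motif was in the windows of TUFM (-8) and TOMM6 (-80), which fell, and of GFM1 (-8) and TOMM70A (-104), which had no call.

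**Figure D3:**
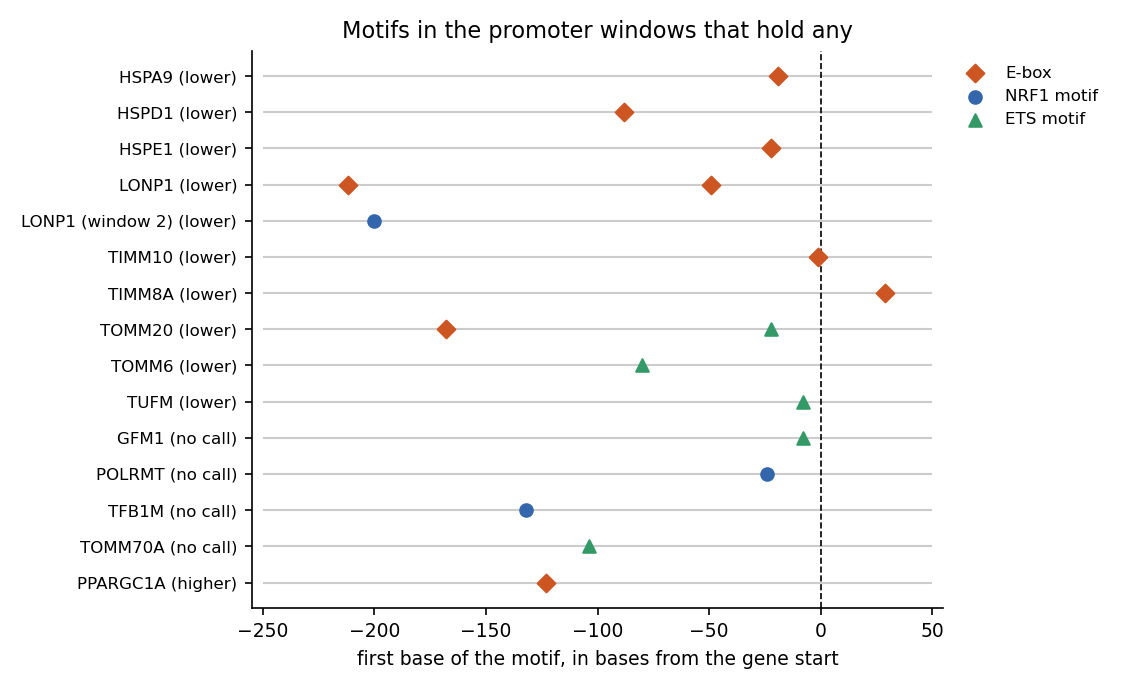
First base of each E-box, NRF1 motif and ETS motif, in bases from the gene start, in the promoter windows that hold any. E-boxes of the genes that fell lie between -212 and 29, and NRF1 and ETS motifs lie in windows of genes that fell (LONP1, TOMM20, TUFM, TOMM6) and of genes without a call.

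The matrix chaperones formed a role in which every measured gene fell: 4 of 4, beside 22.8% of all tested genes, with a median log2 fold change of -0.75. With so few genes, counts by role are only descriptions. GRPEL1, the nucleotide exchange factor that recycles mitochondrial HSP70, stood at 46.9 and 47.7 RPKM in Ctrl and at 24.2 and 23.9 RPKM in MYCN KD. Both knockdown samples were at about the same level, well below the controls (log2 fold change -0.95, SE 0.034, limma adjusted p = 0.00359). HSPD1, the HSP60 chaperonin, was at 260.1 and 306 RPKM in Ctrl and at 171 and 146 RPKM in MYCN KD. The groups did not overlap although replicates of HSPD1 differed more than those of the other chaperones (-0.83, SE 0.13, limma adjusted p = 0.0159). Its partner HSPE1, the HSP10 lid of the chaperonin, was at 47.0 and 46.5 RPKM against 28.7 and 29.1 RPKM (-0.68, SE 0.033, limma adjusted p = 0.00359). HSPA9, the HSP70 that pulls chains into the matrix, was at 182 and 204 RPKM against 128 and 115 RPKM (-0.66, SE 0.090, limma adjusted p = 0.0129). All 4 genes had both knockdown samples below both controls, as did 35.8% of all tested genes. HSPD1 lies on chromosome 2 from 198351308 to 198381461 on the minus strand and HSPE1 from 198364864 to 198368173 on the plus strand (GENCODE 44 on GRCh37), and 135 exon bases of the 2 genes overlap. The readthrough gene HSPE1-MOB4, which shares 192 exon bases with HSPE1, is listed at 0 in all samples. How reads in shared exons were counted is not given in the sources used here, so the level of HSPE1 relative to HSPD1 is uncertain.

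The prohibitins form a ring-shaped scaffold in the inner membrane, and C1QBP is an acidic matrix protein linked to mitochondrial translation. All 3 of these genes also fell (beside 22.8% of all tested genes, median -0.59). C1QBP had the largest decrease of the 45 tested genes on the log2(RPKM + 1) scale. It was at 168 and 175 RPKM in Ctrl and at 84.8 and 81.8 RPKM in MYCN KD, a mean decrease of its level by 51.4% (log2 fold change -1.03, SE 0.042, limma adjusted p = 0.00359). The gene lies on chromosome 17 from 5336097 to 5352150 on the minus strand. PHB was at 225 and 216 RPKM against 143 and 149.5 RPKM (-0.59, SE 0.043, limma adjusted p = 0.00489). PHB2, the most abundant of the 46 genes per kilobase, was at 429.9 and 403 RPKM against 296 and 316 RPKM (-0.44, SE 0.057, limma adjusted p = 0.0115). None of the 3 genes overlapped between the groups, and 35.8% of all tested genes were likewise below both controls in both knockdown samples.

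Of the genes grouped under the TOM complex and outer membrane, 7 of 9 tested fell (77.8%, beside 22.8% of all tested genes). Another 1 rose and 1 did not pass the test. The median log2 fold change of the 9 was -0.45. This group includes TOMM34, which is cytosolic. TOMM40, the channel of the TOM complex, was at 228 and 208 RPKM in Ctrl and at 135 and 147 RPKM in MYCN KD (-0.62, SE 0.073, limma adjusted p = 0.00978). The receptors TOMM20 and TOMM22 were at 102 and 111 RPKM against 80.5 and 74.3 RPKM (-0.45, limma adjusted p = 0.0169) and at 199 and 186 RPKM against 132 and 141 RPKM (-0.50, limma adjusted p = 0.00986). In these 3 core genes both knockdown samples were below both controls, as in 35.8% of all tested genes. TOMM34, a cytosolic co-chaperone of import, went from 76.3 and 73.9 RPKM to 40.0 and 41.3 RPKM (-0.87, SE 0.039, limma adjusted p = 0.00359). Among the small TOM subunits, TOMM5 was at 108 and 112 RPKM against 63.1 and 61.1 RPKM (-0.82, limma adjusted p = 0.00359), and TOMM6 at 258 and 245 RPKM against 189 and 199 RPKM (-0.37, limma adjusted p = 0.0122). Of these 3 genes, TOMM34 and TOMM5 had the larger decreases and TOMM6 the smaller. TOMM7, which helps to keep the complex open to exchange, was at 126 and 129 RPKM against 115 and 112 RPKM (-0.16, SE 0.037, limma adjusted p = 0.0372). This call was lost when any 1 of the 4 samples was left out (adjusted p of up to 0.342).

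TOMM70A, the receptor for carrier proteins, was at 37.1 and 41.3 RPKM in Ctrl and at 35.6 and 32.2 RPKM in MYCN KD, with no call (log2 fold change -0.20, limma adjusted p = 0.134). TOMM40L, a paralog of TOMM40, went the other way: it was at 15.6 and 14.9 RPKM in Ctrl and at 18.4 and 19.3 RPKM in MYCN KD. Both knockdown samples were above both controls (0.29, SE 0.048, limma adjusted p = 0.0199). The call on TOMM40L was lost without Ctrl replicate 2 (adjusted p = 0.111), without MYCN KD replicate 1 (0.0552) and without MYCN KD replicate 2 (0.136). Its exons share 663 bases (20.1%) with NR1I3 on the opposite strand, which had a mean of 0.882 RPKM. No source used here says whether the counting used strand. Such overlaps were not limited to genes that rose or had no call. By GENCODE, TOMM6 (100% of exon bases) and TSFM (67.3%), which fell, share exons with same-strand genes that are not listed. TOMM20L was the only one of the 46 below the filter, with 9 and 13 adjusted reads in Ctrl and 16 and 11 in MYCN KD. Of its exon bases, 174 (28.6%) are shared with TIMM9 on the opposite strand, which had a mean of 25.5 RPKM.

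The small TIM chaperones are hexamer subunits that carry hydrophobic proteins through the intermembrane space. Of these genes 4 of 6 fell (66.7%, beside 22.8% of all tested genes, median -0.50). TIMM13 was at 181 and 165 RPKM in Ctrl and at 94.7 and 103 RPKM in MYCN KD (log2 fold change -0.80, SE 0.074, limma adjusted p = 0.00676). TIMM9 and TIMM10, which assemble into one hexamer, were at 29.6 and 30.9 RPKM against 21.1 and 20.3 RPKM (-0.52, limma adjusted p = 0.00602) and at 79.1 and 72.8 RPKM against 51.4 and 55.9 RPKM (-0.49, limma adjusted p = 0.0141). TIMM8A, a partner of TIMM13, was at 11.2 and 11.97 RPKM against 8.06 and 7.55 RPKM (-0.51, limma adjusted p = 0.00949). In each of the 4 genes both knockdown samples were below both controls, as in 35.8% of all tested genes. TIMM8B was at 76.4 and 71.4 RPKM against 63.1 and 67.5 RPKM (-0.18, limma adjusted p = 0.0888), and TIMM10B at 13.3 and 13.0 RPKM against 13.8 and 14.1 RPKM (0.08, limma adjusted p = 0.186), neither with a call. TIMM22, the channel that inserts carriers into the inner membrane, was at 26.0 and 24.02 RPKM against 20.9 and 22.7 RPKM, also with no call (-0.19, limma adjusted p = 0.0961).

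The TIM23 complex takes in proteins that carry a presequence. Of its 7 genes 5 fell (71.4%, beside 22.8% of all tested genes, median -0.43). TIMM44, which tethers the import motor to the channel, was at 61.1 and 59.3 RPKM in Ctrl and at 38.1 and 39.3 RPKM in MYCN KD (log2 fold change -0.62, SE 0.039, limma adjusted p = 0.00422). TIMM50, the receptor that first meets the presequence, was at 94.2 and 86.6 RPKM against 60.8 and 66.0 RPKM (-0.51, SE 0.070, limma adjusted p = 0.0134). TIMM21, which links TIM23 to TOM, was at 16.8 and 16.4 RPKM against 11.9 and 12.2 RPKM (-0.43, limma adjusted p = 0.00682). All 3 were lower in both knockdown samples than in either control, as were 35.8% of all tested genes. The channel gene TIMM23 was at 65.9 and 66.4 RPKM against 48.7 and 48.4 RPKM (-0.44, limma adjusted p = 0.00480) and its copy TIMM23B at 2.54 and 2.92 RPKM against 2.22 and 1.93 RPKM (-0.28, limma adjusted p = 0.0664). These copies are near-identical and their reads may be split between them, so each level is uncertain. For TIMM23B, leaving out 1 sample gave log2 fold changes of -0.350 to -0.205.

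TIMM17A and TIMM17B are alternative subunits of the same channel. TIMM17A was at 67.3 and 71.4 RPKM in Ctrl and at 57.4 and 54.2 RPKM in MYCN KD (log2 fold change -0.31, SE 0.054, limma adjusted p = 0.0213). Its groups did not overlap, although the call was lost without Ctrl replicate 2 (adjusted p = 0.0574), without MYCN KD replicate 2 (0.0651) and when all samples were set to the same RPKM total (0.0553). TIMM17B was at 93.4 and 87.1 RPKM against 91.0 and 97.3 RPKM, and its groups overlapped (0.06, SE 0.061, limma adjusted p = 0.450). Of its exon bases, 402 (15.5%) are shared with PQBP1 on the opposite strand, which had a mean of 84.3 RPKM.

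Of the ATP-dependent proteases, 2 of 4 fell (50%, beside 22.8% of all tested genes, median -0.36). LONP1, the main protease of the matrix, was at 120.2 and 108 RPKM in Ctrl and at 74.1 and 82.1 RPKM in MYCN KD (log2 fold change -0.54, SE 0.084, limma adjusted p = 0.0168). AFG3L2, of the inner membrane m-AAA protease, was at 16.9 and 17.8 RPKM against 12.7 and 12.1 RPKM (-0.45, SE 0.051, limma adjusted p = 0.00905). Neither gene overlapped between the groups, and 35.8% of all tested genes were likewise below both controls in both knockdown samples. Of the exon bases of AFG3L2, 837 (11.7%) are shared with TUBB6 on the opposite strand, which had a mean of 44.9 RPKM. CLPP, the proteolytic ring of ClpXP, was at 147 and 132 RPKM against 109 and 122 RPKM (-0.27, limma adjusted p = 0.0886). YME1L1, the i-AAA protease that faces the intermembrane space, was at 34.3 and 40.7 RPKM against 46.6 and 39.5 RPKM (0.19, limma adjusted p = 0.288). Its values overlapped, with Ctrl replicate 1 lowest and MYCN KD replicate 1 highest. CLPP and YME1L1 had no call with all samples. Leaving out 1 sample gave log2 fold changes of -0.347 to -0.185 for CLPP and 0.0739 to 0.314 for YME1L1.

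The regulators of biogenesis in the nucleus split by direction: 3 of 4 fell and 1 rose (75% and 25%, median -0.63). Of all tested genes 22.8% were lower and 25.3% higher, so the share that rose is near that of all genes. PPRC1, a coactivator of the PGC-1 family that responds to growth signals, was at 52.9 and 46.6 RPKM in Ctrl and at 23.4 and 26.5 RPKM in MYCN KD (log2 fold change -0.97, SE 0.099, limma adjusted p = 0.00774). PPARGC1B, which codes for PGC-1 beta, was at 3.98 and 4.34 RPKM against 1.74 and 1.61 RPKM (-0.95, SE 0.059, limma adjusted p = 0.00422). Its mean level decreased by 59.8%, the largest relative decrease of the 46 genes, since adding 1 to RPKM understates the change of low genes. PPARGC1A, which codes for PGC-1 alpha, the coactivator known for energy-demanding tissues, was at 1.88 and 2.22 RPKM against 3.50 and 2.98 RPKM. Both knockdown samples were above both controls, with 406 and 449 adjusted reads in Ctrl and 642 and 583 in MYCN KD (0.47, SE 0.097, limma adjusted p = 0.0297). Leaving out 1 sample gave log2 fold changes of 0.386 to 0.561. The rise missed the threshold when genes of all levels were tested (limma adjusted p = 0.0513). NRF1 was at 9.94 and 10.6 RPKM against 8.39 and 7.87 RPKM (-0.31, SE 0.059, limma adjusted p = 0.0262). The groups of NRF1 did not overlap, and the call was lost without Ctrl replicate 2 (adjusted p = 0.134), without MYCN KD replicate 2 (0.146) and at the same RPKM total (0.0635). PPRC1 lies on chromosome 10 from 103892751 to 103910090, PPARGC1B on chromosome 5 from 149109861 to 149234585 and PPARGC1A on chromosome 4 from 23756664 to 23905712.

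Of the genes grouped under mitochondrial transcription, 1 of 4 fell (25%, near the 22.8% of all tested genes), with a median of -0.34. TFB2M, which opens the promoter for the mitochondrial RNA polymerase, was at 14.3 and 15.5 RPKM in Ctrl and at 8.42 and 7.82 RPKM in MYCN KD (log2 fold change -0.81, SE 0.066, limma adjusted p = 0.00567). POLRMT, that polymerase, was at 40.5 and 35.1 RPKM against 26.4 and 30.4 RPKM (-0.40, SE 0.11, limma adjusted p = 0.0563). TFAM, which packages mitochondrial DNA and bends its promoters, was at 5.92 and 6.77 RPKM against 5.38 and 4.74 RPKM (-0.28, SE 0.094, limma adjusted p = 0.0879). For all 3 genes the groups were apart, but only TFB2M passed. Groups apart were common: both MYCN KD values lay below both Ctrl values in 35.8% of all tested genes and above in 40.4%. TFB1M, which methylates the ribosomal RNA of the small mitochondrial subunit, was at 3.74 and 4.799 RPKM against 5.77 and 4.54 RPKM, and its groups overlapped (0.22, SE 0.16, limma adjusted p = 0.310). In TFB1M, 1264 exon bases (30.7%) are shared with TIAM2 on the opposite strand, listed at a mean of 0.428 RPKM. Leaving out 1 sample gave log2 fold changes of -0.501 to -0.301 for POLRMT, -0.360 to -0.193 for TFAM and 0.0796 to 0.370 for TFB1M.

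Of the elongation factors of the mitochondrial ribosome, 2 of 3 fell (66.7%, beside 22.8% of all tested genes, median -0.43). TUFM, which brings aminoacyl-tRNA to the ribosome, was at 264 and 247 RPKM in Ctrl and at 180.4 and 193 RPKM in MYCN KD (log2 fold change -0.45, SE 0.059, limma adjusted p = 0.0120). TSFM, which recharges TUFM, was at 20.6 and 20.8 RPKM against 15.2 and 15.1 RPKM (-0.43, SE 0.035, limma adjusted p = 0.00567). Both were lower in each knockdown sample than in either control, as were 35.8% of all tested genes. GFM1, the translocase, was at 25.6 and 28.7 RPKM against 24.2 and 21.7 RPKM with no call (-0.23, SE 0.089, limma adjusted p = 0.112). With 1 sample left out its log2 fold change was -0.311 to -0.153.

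**Figure D4:**
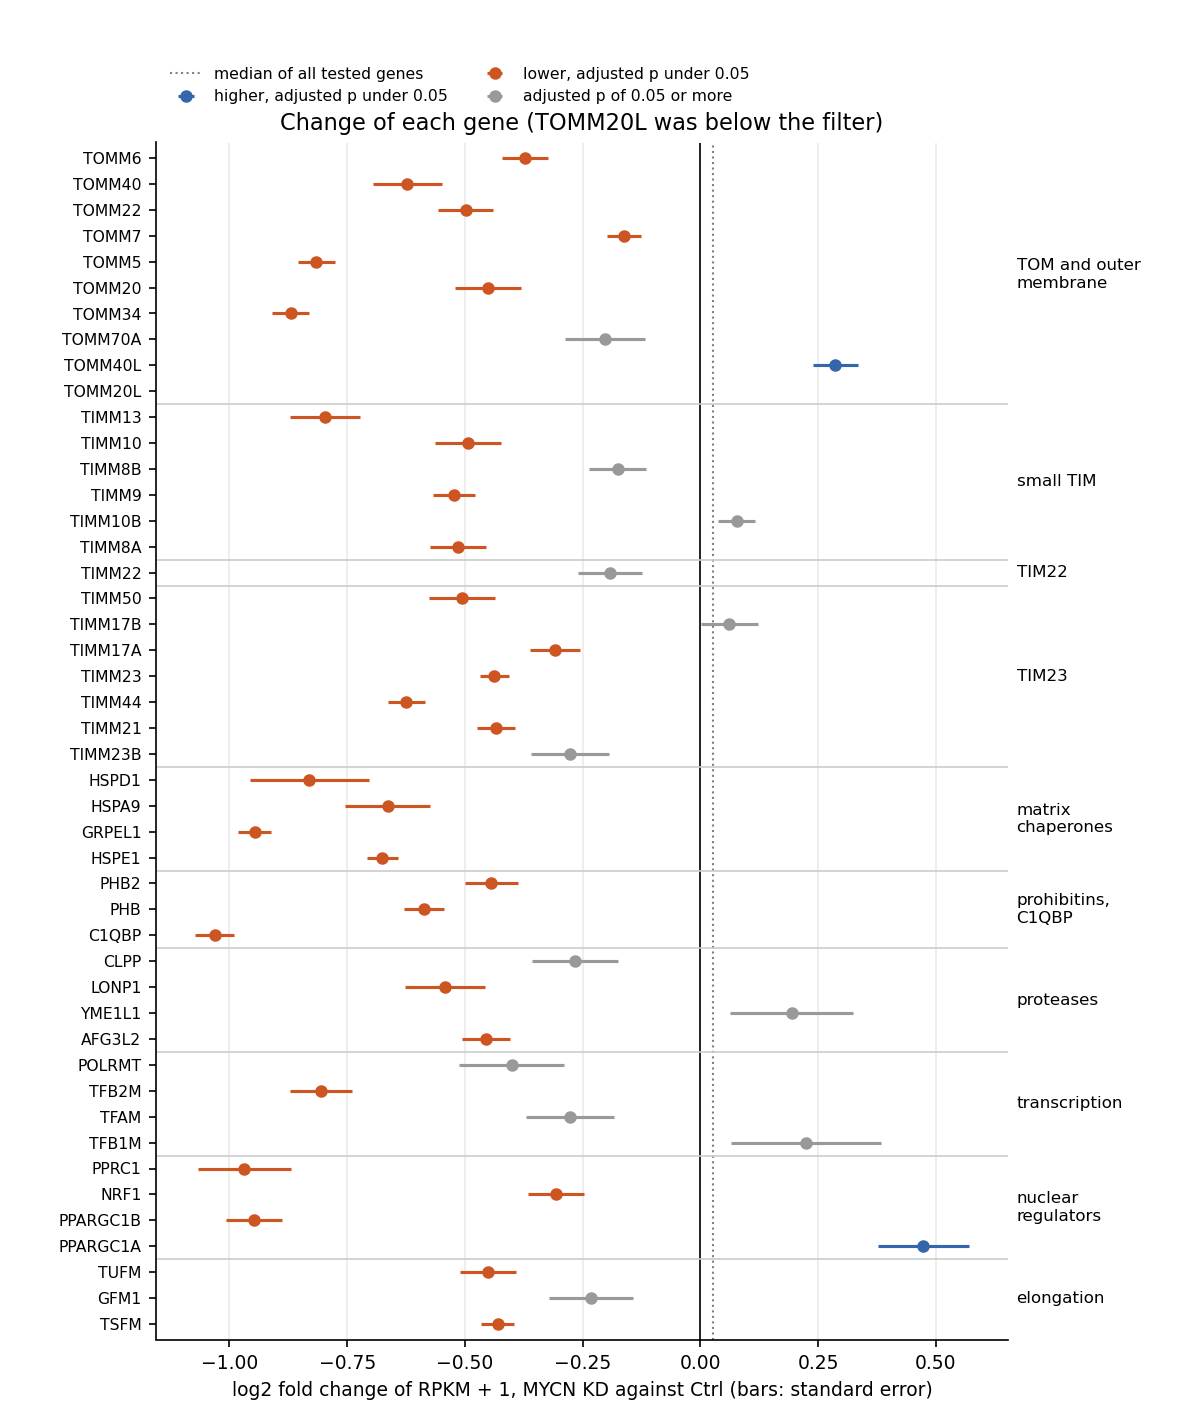
Log2 fold change of RPKM + 1, MYCN KD against Ctrl, for the 45 tested genes by role, with bars of 1 standard error. The matrix chaperones, prohibitins and C1QBP all lie between -1.03 and -0.44 and are all lower, while TOMM40L (0.29) and PPARGC1A (0.47) are the genes called higher.

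Paralogs and partners were then compared directly, as the log2 ratio of one gene to the other in each sample (10 pairs, RPKM + 1). With 2 samples against 2 the two-sided exact permutation test cannot give a p below 0.3333, so none of the differences could reach the threshold. PPARGC1A changed most against its paralog: its RPKM was 0.472 and 0.512 times that of PPARGC1B in Ctrl and 2.01 and 1.85 times in MYCN KD, a difference of 1.42 in log2 ratio (SE 0.060). The more abundant of the pair thus was PPARGC1B in both controls and PPARGC1A in both knockdown samples. TFB1M was 0.261 and 0.309 times TFB2M in Ctrl and 0.686 and 0.581 times in MYCN KD, a difference of 1.03 (SE 0.13). TOMM40 was 14.6 and 14.0 times TOMM40L in Ctrl and 7.34 and 7.65 times in MYCN KD, a difference of -0.91 (SE 0.044). These 3 pairs had the largest differences of the 10, and in each the ratios of the groups did not overlap. The standard errors rest on 2 samples a group and do not replace the test.

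Smaller differences were seen for TIMM10 over TIMM10B (-0.57, SE 0.063), TIMM17A over TIMM17B (-0.37, SE 0.13) and TIMM8A over TIMM8B (-0.34, SE 0.13). The ratio of PHB to PHB2 moved by only -0.14 (SE 0.023) on this scale. The difference for TIMM23 over TIMM23B was -0.16 (SE 0.091) with 1 added to RPKM and -0.07 (SE 0.13, groups overlapping) with 0.1 added, and the RPKM ratios themselves overlapped (25.9 and 22.8 in the controls, 21.98 and 25.02 after knockdown). TOMM20 over TOMM20L (-0.62, SE 0.089) rests on the few reads of TOMM20L. For HSPD1 over HSPE1 the RPKM ratio of 5.54 and 6.59 in the controls overlapped that of 5.96 and 5.04 after knockdown (-0.15, SE 0.17, exact permutation p = 0.667). For the other 9 pairs the groups did not overlap on the log2(RPKM + 1) scale (exact permutation p = 0.3333, adjusted over the 10 pairs 0.370). Most single genes were also apart (35.8% of all tested genes below and 40.4% above), so this count says little about the pairs.

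**Figure D5:**
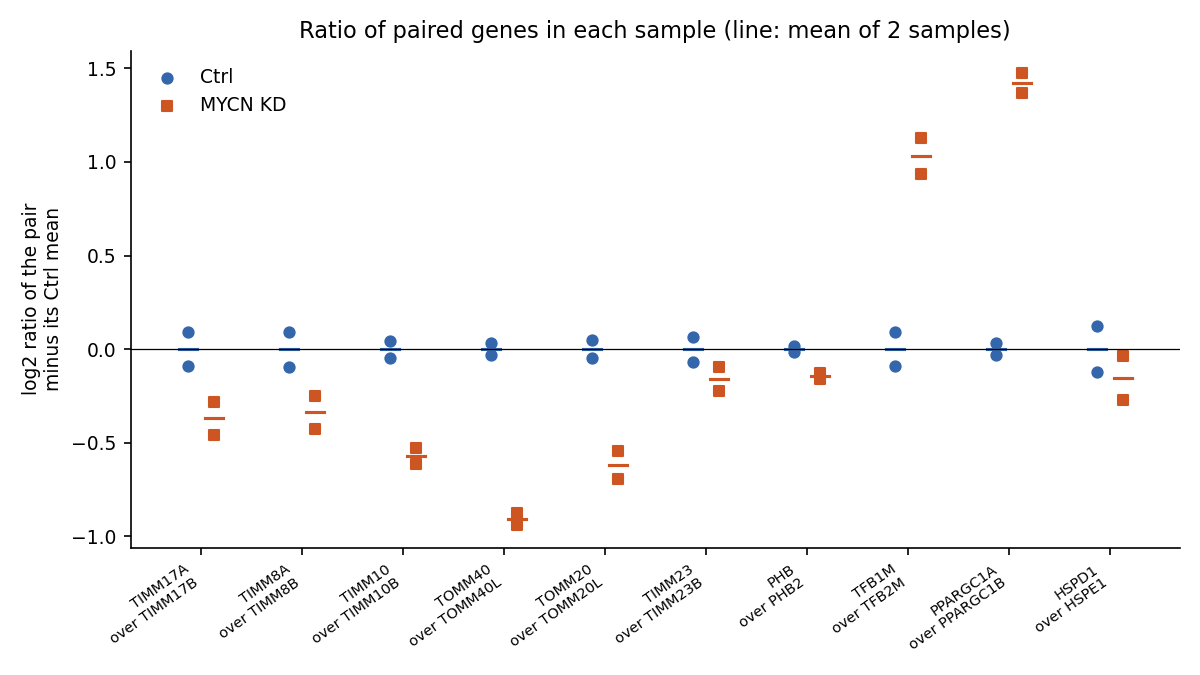
Log2 ratio of paired genes (RPKM + 1) in each sample minus the mean ratio in Ctrl, for 10 pairs, with lines at the mean of the 2 samples. PPARGC1A over PPARGC1B (1.42) and TFB1M over TFB2M (1.03) lie above the controls, TOMM40 over TOMM40L (-0.91) lies furthest below, and HSPD1 over HSPE1 overlaps.

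Neither level nor length ordered the changes closely. Across the 45 tested genes, which share the same 4 libraries, the log2 mean level and the log2 fold change had Pearson's r = -0.324 and Spearman's rho = -0.287, and gene length and the log2 fold change had r = 0.0952 and rho = 0.0657.

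Other genes of mitochondrial import and biogenesis outside the 46 were also tested. Of 48 tested (49 listed), 17 were lower (35.4%, beside 22.8% of all tested genes), 2 were higher (4.17%, beside 25.3%) and 29 had no call, with a median log2 fold change of -0.18. By role, 5 of 9 genes of mitochondrial DNA replication and transcription and 5 of 8 further chaperones and proteases fell, as did 3 of 9 genes of the import motor and processing peptidases, 2 of 10 of intermembrane space and outer membrane assembly, 2 of 7 translation factors and 0 of 5 further nuclear regulators. Of these shares, 20% (2 of 10) and 28.6% (2 of 7) are near the share of all genes. C10orf2, the helicase that unwinds mitochondrial DNA, went from 25.4 and 23.0 RPKM in Ctrl to 9.25 and 10.2 RPKM in MYCN KD (-1.23, limma adjusted p = 0.00440). TRAP1, the mitochondrial HSP90, went from 291 and 262 RPKM to 133 and 147 RPKM (-0.98, limma adjusted p = 0.00632). The 2 that rose were CLPB, a disaggregase of the intermembrane space (62.4 and 61.7 against 75.7 and 76.5 RPKM, 0.29, limma adjusted p = 0.00850), and ESRRA, a nuclear receptor partner of the PGC-1 coactivators (10.4 and 11.6 against 14.9 and 13.4 RPKM, 0.33, limma adjusted p = 0.0467). For ESRRA the call was lost without Ctrl replicate 1 (adjusted p = 0.118) and without MYCN KD replicate 1 (0.139).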

How the data were processed

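RNA-seq was analysed in 4 samples, 2 Ctrl and 2 MYCN KD, grouped by their labels. The authors aligned reads to hg19 with HISAT2 2.1.0, counted them per RefSeq gene by featureCounts, used DESeq2 and then RUVSeq to take out unwanted variation, and deposited the result as RPKM. The RUVSeq settings, and whether strand was used in counting, are not given in the sources used here. RUVSeq adjusts the values before deposit, so replicate spread is that of adjusted values. RPKM steps gave whole reads (within 0.002) for all 19908 genes above 0 (100.0%), with 98.3% to 98.4% of the reads in listed genes. By the study's methods the reads of a gene are counts after normalization, not sequenced reads.

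The log2 of RPKM + 1 was tested in limma 3.58.1 under R 4.3.3 (eBayes with a trend, no block) for 11411 genes with a mean of at least 1 RPKM, with Benjamini-Hochberg adjustment over all of them. The fit was also run on simulated data. Its counts were drawn independently, unlike the replicate deviations of these samples, so it does not check the error rate here. Limma voom on the recovered, already adjusted reads called 31 of the genes described lower and 2 higher (2579 and 2917 of all genes). It was added after seeing the data. The other alternatives were a pseudocount of 0.1, no filter or a minimum of 5 RPKM, equal RPKM totals, quantile normalization, no trend, a replicate block and leaving out each sample. All 46 genes were to be named, with the 2 largest falls and rises among other import and biogenesis genes. The genes, lists and markers were chosen with earlier results of these data known, and 1 leukocyte marker is not reported here. Positions came from GENCODE 44 on GRCh37, the assembly of hg19, and promoter sequences from RefSeq (table of GRCh38.p14). Tables and figures were made in Python 3.11.15 (pandas 2.3.3, numpy 2.4.6, matplotlib 3.10.9), and exact tests with scipy 1.17.1.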

Additional observations from a re-analysis of the deposited data

How the results depend on the processing

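Of the 45 tested import and biogenesis genes, at least 28 (the count at equal RPKM totals) were lower under every alternative, beside 31 in the report. No called gene changed direction, and 41 genes were tested at a mean of at least 5 RPKM. A block with the replicate numbers crossed gave 39 lower, but it was built from the spread of these same samples. The median log2 fold change of the 45 was -0.39 at equal totals, which moved the median of all genes to 0.08, and -0.42 after quantile normalization. Without 1 sample it lay between -0.47 and -0.44, with 30 to 34 genes lower and 1 to 3 higher. Of these genes 1 was higher without a filter, 1 at a mean of at least 5 RPKM and 1 with the replicate block. TOMM7 lost its call at equal totals (limma adjusted p = 0.159) and after quantile normalization (0.146), where TIMM23B (0.0120) and TFAM (0.0193) gained one. At a mean of at least 5 RPKM 1868 of all genes were higher. Of the other import and biogenesis genes, 1 was higher without a filter and 4 were at equal totals, where their median was -0.12. Over all genes the split of higher to lower calls was 2890 to 2599 in the report, 3279 to 2122 at equal totals and 2901 to 2993 after quantile normalization.

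The labels number the replicates, but the deviations of replicate 1 from the group means correlated at -0.98 between Ctrl and MYCN KD over 11411 genes. Equal numbers thus do not mark samples that deviate together. The spreads within the groups are also not independent, although the limma tests treat them so. The standard errors and adjusted p-values of the report therefore rest on less independent spread than the tests assume. With the replicate block (1 residual degree of freedom) 29 of the 45 genes were lower and 1 higher, 0 of the other import and biogenesis genes were higher, and 1851 of all genes were lower and 2077 higher. TOMM40L (limma adjusted p = 0.154), TIMM17A (0.0735), TOMM7 (0.372) and NRF1 (0.156) lost their calls, as did CLPB (0.0915) and ESRRA (0.104), and POLRMT gained one (0.0235). Of the other genes, HTRA2 (0.128), PARL (0.147), DNAJC19 (0.199), C12orf65 (0.0725) and POLG (0.236) also lost their calls, and PAM16 (0.00489) and AGK (0.0435) gained one, which left 14 lower. With the numbers crossed, a pairing added after seeing the data, 39 of the 45 genes were lower and 6 higher, 39 of the others lower and 8 higher, and 5262 of all genes lower and 5910 higher. This pairing follows the correlation of -0.98 and so takes up most of the spread (SE of TOMM40L 0.0016, beside 0.048 in the report). Its counts therefore add no support.

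With 2 samples a group, the tests have 2 residual degrees of freedom. A fit with 1 sample left out assumes that the lone sample varies like the other group. In such fits, and with the replicate block, the standard errors hardly followed a gene's own spread. With all samples they were 0.033 for HSPE1 and 0.13 for HSPD1. Without Ctrl replicate 1 they were 0.13 and 0.11, and with the block 0.15 and 0.13. Calls lost or gained in these fits therefore mostly followed the size of the fold change and say little about a gene's own spread. Since RNA was measured over all cells, a change in RNA per cell and a change in the cells present cannot be told apart. The values had been adjusted before deposit, and the effect of that step on these genes was not tested.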

Other observations

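MYC and MAX, chosen after their values were seen, also differed between the groups. MYC, the paralog of MYCN, was at 0.780 and 0.542 RPKM in Ctrl and at 6.73 and 9.32 RPKM in MYCN KD, with both knockdown samples above both controls (log2 fold change 2.43, SE 0.18, limma adjusted p = 0.00497). MAX, the partner with which MYC proteins bind the E-box, was at 35.8 and 34.5 RPKM in Ctrl and at 24.4 and 25.3 RPKM in MYCN KD (-0.48, SE 0.043, limma adjusted p = 0.00640). Whether either change bears on the import and biogenesis genes was not tested.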
